A study of Mus musculus with 4 samples.

Results

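The regions described here are stretches of the mouse X chromosome whose DNA methylation differs between the parental alleles and that lie beside genes expressed in the cortex. They were chosen by measured values: the allelic difference that put a region in the authors' list of differentially methylated regions, and the expression of the gene beside it. A region was included if it has a level for each allele and touches the 2 kb on either side of either end of an X-linked gene with at least 1 FPKM (an expression level scaled to gene length and library depth) in RNA library 1. This gave 315 of the 594 X-linked regions with both levels, out of 1613 regions in the list. The 315 regions lie beside 273 of 510 expressed X-linked gene loci, out of 2609 X-linked loci in the table. The levels, their direction and the FPKM of library 1 are therefore given below as a description.

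Methylation was read by MethylC-seq, a form of bisulfite sequencing, and expression by RNA-seq, each in 2 libraries of prefrontal cortex. The donors were 14 weeks old female crosses of strain C57BL6J/Spretus, and every one of them carried an Xist mutation on its maternal X. Reading that label as mother/father puts the mutation on C57, and there was no group with intact Xist. Per the labels' protocols, tissue of 2 individuals from separate litters was pooled, and the MethylC-seq libraries came from separate amplifications of portions of the converted DNA, so these may be technical replicates. Nothing in the labels says that the RNA libraries came from different animals, and p-values measure only the spread between them. The list gives 1 level per allele and region, as a fraction from 0 to 1, with no library, coverage or error, so the depth behind a level is unknown.

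In female mammals, Xist RNA coats the X chromosome it is transcribed from and silences it. Silenced X-linked genes commonly gain DNA methylation at CG-rich promoters, while the promoters of genes on the active X chromosome are kept free of it. Genes that escape silencing are transcribed from the coated chromosome as well. A chromosome that cannot make Xist stays active, so in these mice the alleles of each cell can be read as active or silenced by their strain of origin.

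Reads that could be assigned to an allele numbered 4768237 in RNA library 1 and 1291903 in library 2. On the X chromosome, 3.38% of such reads in library 1 and 3.65% in library 2 came from Spretus. For Xist itself, Spretus gave 2158 reads and C57 31 in library 1, and in library 2 the numbers were 795 and 9. The median over the neuronal markers Map2, Rbfox3, Snap25 and Syt1 was 455 FPKM in library 1 and 107 in library 2, and the choroid plexus markers Ttr and Folr1 had a median of 0.796 and 0.530. All 4 markers in each of the astrocyte, oligodendrocyte and microglia lists, and all 3 for endothelium and all 3 for blood, were above 1 FPKM in library 1, so the tissue is a mix of cell types. The libraries were not alike in these markers: the blood median was 291 FPKM in library 1 and 20.5 in library 2, and the oligodendrocyte median 63.9 and 7.35, each a larger ratio than for neurons. The medians were 21.9 and 3.10 for astrocytes, 14.0 and 1.93 for microglia and 10.8 and 1.90 for endothelium. The part of these differences in the results from RNA was not tested. In such bulk tissue, fewer cells of a type and less RNA per cell cannot be told apart, and neither can a methylation level shared by all cells and one averaged over cells that differ.

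The promoters of 6 genes show the kinds of place where these regions lie. Each window runs from 250 bases before to 50 bases after a transcription start, is taken from RefSeq (build GRCm38.p6, the same assembly as mm10), reads 5′ to 3′ on the gene's strand and belongs to the C57 reference. Capitals mark CG dinucleotides, the main sites of methylation in mammals. Yipf6 (chrX:98937531-98937830, plus strand) and Nxt2 (chrX:142227687-142227986, plus strand) have these starts inside long regions of this kind, though the authors' table begins both genes further upstream. Xist (chrX:103483184-103483483, minus strand) and Rlim (chrX:103981236-103981535, minus strand) each have a region that is higher on C57 within 2 kb of the start. Tceal5 (chrX:136203835-136204134, minus strand) has a region in its window and Spretus reads, and Ddx3x (chrX:13280772-13281071, plus strand) is a known escape gene with no region within 2 kb. The last 2 were chosen after their values were seen.
Yipf6: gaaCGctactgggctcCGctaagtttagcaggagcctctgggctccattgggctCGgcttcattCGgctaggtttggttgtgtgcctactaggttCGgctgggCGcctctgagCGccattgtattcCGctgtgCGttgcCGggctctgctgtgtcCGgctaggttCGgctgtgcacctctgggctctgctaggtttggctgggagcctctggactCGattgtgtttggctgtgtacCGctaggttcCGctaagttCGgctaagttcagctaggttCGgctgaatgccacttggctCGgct
Nxt2: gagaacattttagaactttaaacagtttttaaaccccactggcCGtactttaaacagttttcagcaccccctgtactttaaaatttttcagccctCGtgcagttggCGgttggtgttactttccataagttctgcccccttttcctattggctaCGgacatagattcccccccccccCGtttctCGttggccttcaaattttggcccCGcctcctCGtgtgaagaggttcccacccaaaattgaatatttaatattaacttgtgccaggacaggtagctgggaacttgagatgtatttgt
Xist: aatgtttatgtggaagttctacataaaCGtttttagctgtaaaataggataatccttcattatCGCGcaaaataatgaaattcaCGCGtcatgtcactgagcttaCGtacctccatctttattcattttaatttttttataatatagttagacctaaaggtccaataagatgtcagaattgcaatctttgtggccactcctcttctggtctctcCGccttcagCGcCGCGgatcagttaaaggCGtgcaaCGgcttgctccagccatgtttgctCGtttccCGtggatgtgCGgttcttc
Rlim: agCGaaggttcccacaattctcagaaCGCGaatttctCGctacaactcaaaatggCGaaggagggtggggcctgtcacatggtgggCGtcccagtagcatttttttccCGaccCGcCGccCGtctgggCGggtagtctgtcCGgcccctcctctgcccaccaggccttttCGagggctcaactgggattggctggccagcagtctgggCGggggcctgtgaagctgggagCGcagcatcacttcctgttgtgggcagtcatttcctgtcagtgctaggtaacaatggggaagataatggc
Tceal5: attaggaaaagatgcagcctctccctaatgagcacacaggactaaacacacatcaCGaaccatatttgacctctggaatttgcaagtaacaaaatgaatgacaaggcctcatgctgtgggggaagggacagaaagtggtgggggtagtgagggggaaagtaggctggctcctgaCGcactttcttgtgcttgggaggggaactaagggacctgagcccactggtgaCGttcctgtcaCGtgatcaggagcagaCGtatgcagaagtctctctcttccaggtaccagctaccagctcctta
Ddx3x: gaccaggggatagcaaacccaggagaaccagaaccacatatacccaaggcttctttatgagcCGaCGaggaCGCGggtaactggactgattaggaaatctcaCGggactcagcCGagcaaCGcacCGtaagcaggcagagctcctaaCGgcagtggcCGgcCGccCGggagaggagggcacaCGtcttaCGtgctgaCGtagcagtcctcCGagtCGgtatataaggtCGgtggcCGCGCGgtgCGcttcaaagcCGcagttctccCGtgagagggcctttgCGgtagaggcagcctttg
The windows hold 18 CG in Yipf6, 8 in Nxt2, 15 in Xist, 15 in Rlim, 5 in Tceal5 and 25 in Ddx3x.

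Beside expressed genes the silenced Spretus allele was the methylated one at nearly every listed place. Of the 315 regions, 310 (98.4%, exact Clopper-Pearson 95% interval 96.3 to 99.5%) had the higher level on Spretus and 5 on C57. The median level was 0.00719 on C57 (interquartile range 0 to 0.0446) and 0.693 on Spretus (0.615 to 0.771). The C57 level was exactly 0 in 141 regions and under 0.1 in 277. On Spretus, 242 regions lay between 0.5 and 0.8, 58 above 0.8 and only 4 above 0.9. The active allele was thus close to unmethylated, while the silenced allele was at intermediate levels and rarely fully methylated.

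**Figure D1:**
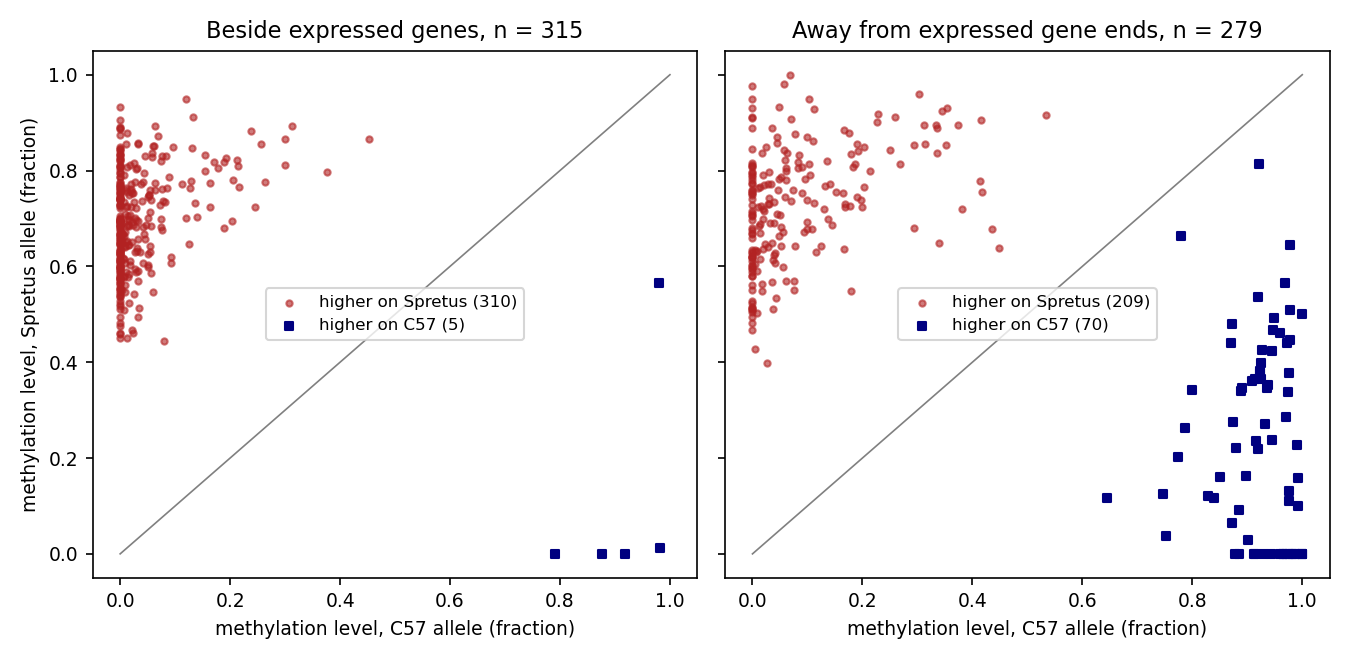
Methylation level of the C57 allele (x axis, fraction) against the Spretus allele (y axis, fraction), 1 point per listed X-linked region, for the 315 regions beside expressed genes and the 279 others. Red points are higher on Spretus and blue squares higher on C57: the left panel has 5 squares and the right panel 70, and most red points sit near 0 on the x axis.

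The 279 X-linked regions away from expressed gene ends were more mixed. Of these, 209 (74.9%, exact 95% interval 69.4 to 79.9%) were higher on Spretus and 70 on C57. Their median length was 354 bp (interquartile range 133 to 599.5), against 504 bp (233.5 to 834.5) beside expressed genes. Among regions higher on Spretus alone, the median C57 level was 0.0400 away from expressed ends and 0.00695 beside them, and the Spretus level 0.733 and 0.694. Within the 279, 80 lie within 2 kb of an end of an X-linked gene below 1 FPKM, and 69 of those were higher on Spretus. Regions are not replicates and the list chose them by their difference, so these contrasts carry no test.

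All of the 5 regions higher on C57 can be named. Xist, the noncoding RNA of X inactivation, holds 3 of them, and its mutated copy lies on C57 as the label was read. The longest, chrX:103483232-103484046 (814 bp), starts at the transcription start printed above and runs upstream, with a level of 0.876 on C57 and 0 on Spretus. Inside the gene, chrX:103482146-103482233 (87 bp) stood at 0.918 and 0, and chrX:103480917-103481385 (468 bp) at 0.982 and 0.0120. Xist is also the gene here whose RNA came mainly from Spretus, at 98.7% ± 0.210 (SD, n = 2). At this gene the methylated and the transcribed allele were therefore swapped relative to the other genes.

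Rlim, which encodes a ubiquitin ligase known as an activator of Xist, had a C57-higher region of 63 bp upstream of its start (chrX:103982686-103982749) with levels of 0.980 and 0.566. Next to it, a region of 1415 bp that covers the start (chrX:103980509-103981924) was higher on Spretus, at 0.00936 and 0.641, as was a stretch of 5 bp inside the gene at 0.0323 and 0.857. Rlim RNA gave 761 reads from C57 and 2 from Spretus in library 1, then 222 and 0 in library 2. The short upstream region thus ran against the direction of the promoter next to it. The remaining C57-higher region, chrX:169977200-169977677 (477 bp, 0.791 and 0), lies beside the uncharacterised loci G530011O06Rik and Gm15726. G530011O06Rik gave 19 reads from C57 and 2 from Spretus in library 1, then 6 and 0, and Gm15726 gave 7 reads in all, too few for a share.

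Most regions lay at gene starts rather than at the far ends. Distances are from the gene ends of the authors' table, and strand came from the RefSeq promoter entries, which matched 381 of the 510 expressed loci by symbol or synonym. Of 273 regions with a known strand for the nearest gene, the nearest end was the start for 264 (96.7%) and the far end for 9. Of the 381 loci, 212 had regions at the start window only, 4 at the end window only, 20 at both and 145 at neither. Some of the 20 are short genes whose windows overlap. The 9 regions nearest a far end include 2 at Tmsb4x, which encodes the actin-binding peptide thymosin beta 4, and 1 each at Mid1ip1, Rnf113a1, Naa10, Gdpd2, Arxes1, Tceal3 and Tspyl2. Their median levels were 0 on C57 and 0.728 on Spretus.

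Regions sat around the gene start of the authors' table with a shift into the gene. Yipf6 and Nxt2 count below as downstream only, though the RefSeq starts printed above lie inside their regions. The part of such locus bounds in the shift was not tested. The region centre lay downstream of the start in 167 of the 264 and upstream in 97, with a median offset of 305 bp into the gene (interquartile range -218 to 802). Of 232 genes with a region in the start window, 79 had a region that covers the start, 82 had regions downstream only, 41 upstream only and 30 on both sides with the start itself left out. The last pattern was seen at Atrx, a chromatin remodeller gene, with levels of 0.0294 and 0.803 in the upstream region and 0 and 0.683 in the downstream region. At Phf8, a histone demethylase gene, the upstream region stood at 0.0506 and 0.744 and the downstream region at 0 and 0.657.

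**Figure D2:**
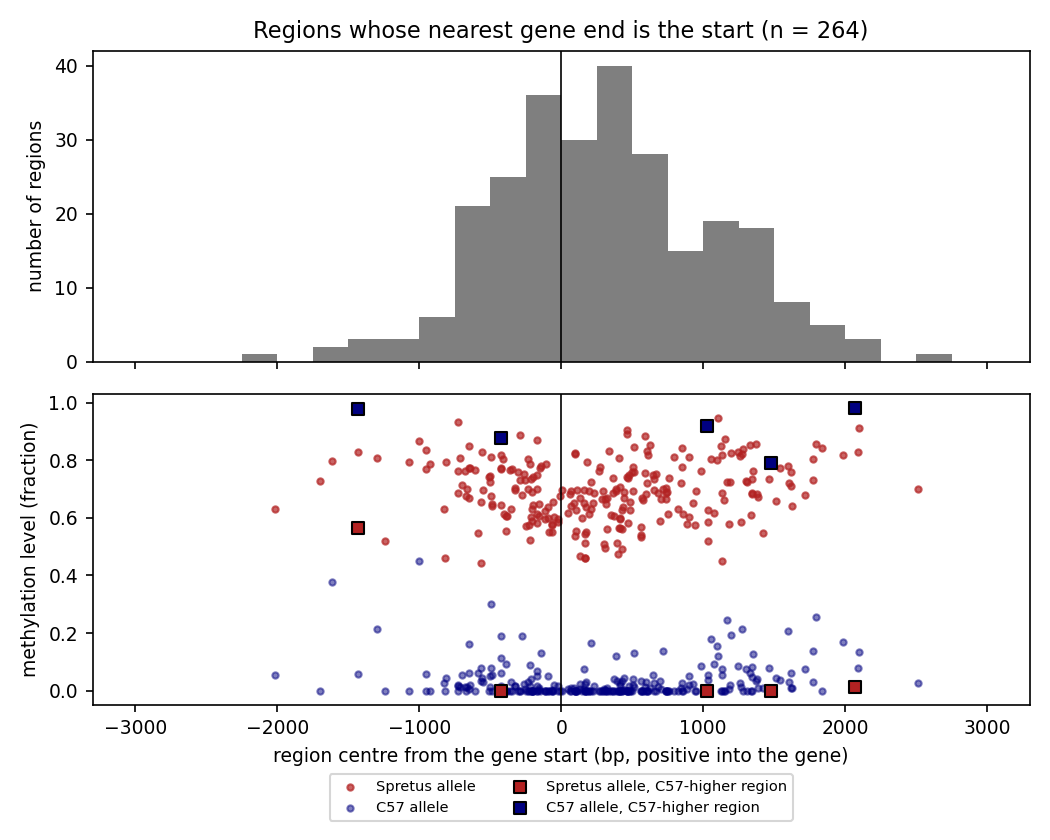
Number of regions (top) and methylation level of each allele (bottom, fraction) against the distance of the region's centre from the gene start (bp, positive into the gene). Starts are those of the authors' table, and the 264 regions are those whose nearest gene end is a start of known strand. Squares with a black edge are the 5 regions higher on C57; among regions higher on Spretus, the median Spretus level was 0.612 over starts and 0.747 at 500 to 2000 bp.

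Regions that cover a gene start of the authors' table were longer and less methylated on Spretus than those beside it. A longer region covers a given point more readily, so the difference in length follows in part from the grouping. Among regions higher on Spretus, the 72 that cover a start had a median length of 994 bp and a median Spretus level of 0.612 (interquartile range 0.569 to 0.668). The 95 closer than 500 bp stood at 363 bp and 0.713 (0.650 to 0.772), and the 92 from 500 to 2000 bp away at 347 bp and 0.747 (0.676 to 0.817). The C57 median was 0, 0 and 0.0211 in the same order. Length alone moved with the Spretus level too, with a Spearman correlation of -0.42 across the 310 regions, given as a description since all regions come from the same libraries. Within the band of 500 to 1000 bp, the 32 regions that cover a start had a median Spretus level of 0.605 and the 53 beside a start 0.694. In the band from 1000 to 3000 bp the medians were 0.636 (n = 35) and 0.701 (n = 13). The 13 include the regions of Yipf6 and Nxt2, which hold a RefSeq start but lie beside the start of the authors' table.

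**Figure D3:**
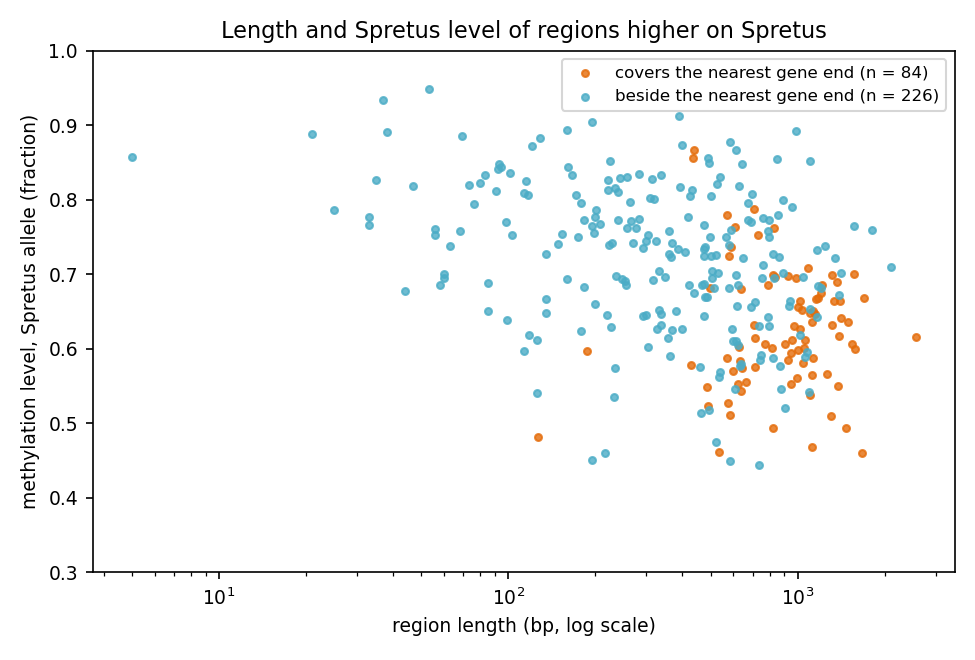
Region length (bp, log axis) against the methylation level of the Spretus allele (fraction) for the 310 regions higher on Spretus. Orange points cover the nearest gene end, either start or far end, and blue points lie beside it: most orange points lie at lengths of 500 bp and more and at levels between 0.5 and 0.7.

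The longest regions lie at genes with varied functions. The regions at the Yipf6 and Nxt2 starts printed above are 2110 bp (chrX:98936882-98938992, 0.00803 on C57 and 0.709 on Spretus) and 1803 bp (chrX:142227488-142229291, 0.0625 and 0.760). Yipf6 encodes a Golgi membrane protein and Nxt2 a factor of nuclear RNA export. The 10 longest also include regions at Pola1 (DNA polymerase alpha, 1692 bp), Maoa (monoamine oxidase A, 1675 bp), Ftsj1 (a tRNA methyltransferase, 1584 bp) and Psmd10 (a proteasome assembly factor, 1571 bp, shared with the start of Atg4a). Pdha1 (pyruvate dehydrogenase, 1564 bp), the histone deacetylase gene Hdac8 (1539 bp) and Prps1 (nucleotide synthesis, 1497 bp) belong to the same 10. Of these 10, Maoa had the lowest Spretus level at 0.461 and Pdha1 the highest at 0.764.

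The edges of the level range were held by few regions. A Spretus level under 0.5 was found in 11 regions higher on Spretus, from 0.444 at Nap1l3 to 0.494 at Tspan6. They include the neighbouring monoamine oxidase genes Maoa (0.461) and Maob (0.482), each with 0 on C57. The 4 regions above 0.9 lay at Lamp2 (0.948), Zcchc18 (0.933), Pim2 (0.913) and 5730405O15Rik (0.905), at 53, 37, 389 and 195 bp. A C57 level of at least 0.25 was seen in 7 regions higher on Spretus, 2 of them at Pja1, 2 at Tmsb4x and 1 each at Gpm6b, Zmat1 and Piga. At Tmsb4x the region over the start stood at 0.0924 and 0.606, and the one upstream of it at 0.376 and 0.797.

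Promoters of genes beside these regions were rich in CG. Over 236 expressed X-linked genes with a region and a promoter entry, the 300-base window held a median of 17 CG (interquartile range 10 to 22). The 145 expressed genes without a region had a median of 13 (7 to 21), all 1223 X-linked windows 7, and all 32851 windows 7. A region was present beside 13 of 33 genes with at most 4 CG (39.4%, exact 95% interval 22.9 to 57.9%) and beside 90 of 131 with 10 to 19 CG (68.7%, 60.0 to 76.5%), and the share was 61.8% at 30 or more (43.6 to 77.8%). The intervals of neighbouring classes overlap.

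Motifs were counted on both strands as plain letters. The letters of all but the YY1-type motif and the TATA box contain a CG. The Sp1-type GC box GGGCGG was in 62.3% of windows of genes with a region, 58.6% of those without and 35.7% of all windows. The YY1-type AAGATGGC was in 7.20%, 4.14% and 2.75%, and the ETS-type CCGGAAG in 12.7%, 10.3% and 8.86%. The TATA box TATAAA was in 19 of 236 windows with a region (8.05%), 16 of 145 without and 13.6% of all. The NRF1-type motif and the CRE TGACGTCA were in at most 2.12% of windows in each of these classes. No letters of these motifs were required by the rule, and a match is not evidence of binding.

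Regions were more often present beside the more highly expressed genes. RNA library 2, which the rule did not use, gave a median of 1.80 FPKM for genes with a region and 1.13 for expressed genes without. Library 2 values ran lower, with a median ratio of library 1 to library 2 of 5.33 over genes with a region. In 5 groups of 102 genes ordered by library 2 FPKM, a region was present beside 36.3% of the lowest group (0 to 0.413 FPKM, exact 95% interval 27.0 to 46.4%) and 65.7% of the highest (4.64 to 149, interval 55.6 to 74.8%). The groups between stood at 51.0%, 59.8% and 54.9%, so the rise was not even. Among all 2609 X-linked loci, 14.9% had a listed region within 2 kb of an end. Of loci with an FPKM of 0 in library 1 it was 3.07%, and of those above 0 and below 1 it was 15.8%.

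**Figure D4:**
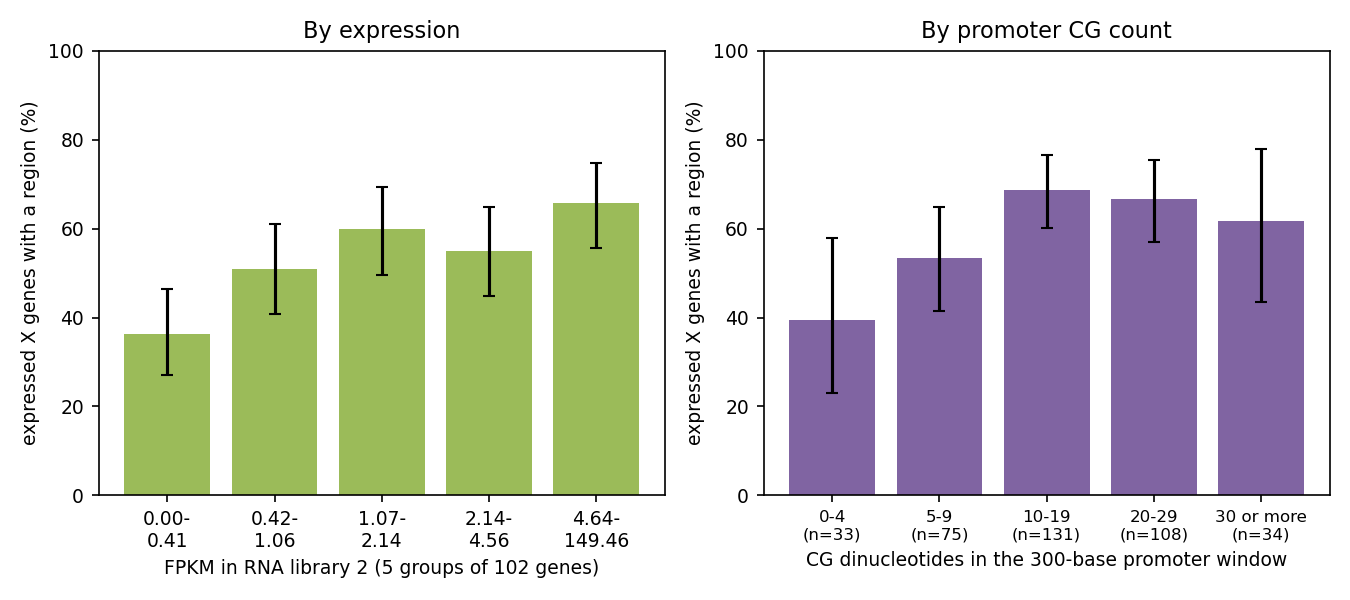
Percent of expressed X-linked genes with a listed region within 2 kb of an end, in 5 groups by library 2 FPKM (left, 102 genes each) and by CG count of the promoter window (right). Bars start at 0 and lines are exact 95% intervals; the lowest group by FPKM stands at 36.3% and the highest at 65.7%.

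The size of the allelic difference had a rank correlation near 0 with the expression of the gene. Across the 315 regions, each taken with the expressed gene of nearest end, the Spearman correlation of the level difference (Spretus minus C57) with library 2 FPKM was 0.06 and the Pearson correlation -0.03. For length and library 2 FPKM the Spearman value was 0.05. These are descriptions across regions, of which 36 lie beside more than 1 expressed gene. The list chose regions by their difference and the rule chose genes by FPKM. Both ranges are thus narrowed, so a value near 0 cannot say that the 2 are unrelated. Among regions higher on Spretus, the median Spretus level was 0.650 beside the lowest group of genes by library 2 FPKM and 0.704 beside the highest. The groups between stood at 0.692, 0.689 and 0.710.

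The most highly expressed genes with regions illustrate this. Tmsb4x, at 391 FPKM in library 1 and 58.2 in library 2, has 4 regions. Huwe1, a ubiquitin ligase gene at 224 and 37.7 FPKM, has 1 region downstream of its start at 0 and 0.610. Atp6ap1, an accessory subunit of the vacuolar proton pump at 193 and 32.9 FPKM, has its start covered by 1173 bp at 0.00437 and 0.668. Cox7b, a subunit of cytochrome c oxidase at 171 and 30.3 FPKM, has its start covered by 1043 bp at 0 and 0.581. Maged1, Morf4l2, Ids, Gpm6b and the uncharacterised Gm14703 are also among the 10 of highest FPKM. The C57 level was 0 at the regions of Morf4l2, Ids and Gm14703.

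Nearly all genes beside these regions were transcribed from C57. Allelic imbalance, as the log2 ratio of Spretus over C57, was tested across all genes by quasi-likelihood in edgeR, with p-values adjusted by Benjamini-Hochberg. Of 233 tested genes beside a region, 232 were called toward C57 and 1, Xist, toward Spretus, with a median log2 ratio of -8.48. The X chromosome as a whole gave a like share: of 397 X-linked genes tested, 99.2% leaned to C57 by the same threshold, against 6.23% of all 11981 genes tested, and 2.32% of those were called toward Spretus. The 164 tested X-linked genes without a region of this kind had 162 calls toward C57 and a median log2 ratio of -8.32. A call toward C57 is therefore not particular to genes with a region.

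The Spretus share of reads asks the finer question of whether any RNA came from the silenced allele. It was taken for the 314 expressed X-linked genes whose reads assigned to either allele numbered 20 or more in both libraries. The 190 genes with a region had a median share of 0.110% (interquartile range 0 to 0.461%), and the 124 without had a median of 0% (0 to 0.459%). No Spretus read was found for 91 and 66 of them, where the limit that 0 reads allow ran from 0.291% to 4.00% with the reads of the gene. Pooled over genes and leaving out Xist, 485 of 74397 reads (0.652%) were Spretus beside regions and 978 of 47183 (2.07%) were where no region was listed. Both medians were near 0, and few genes held most Spretus reads of the second class.

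Those few genes had clear Spretus reads. A gene passed when the lower exact 95% limit of its share was above 2% in each library, as did 3.8% of the 316 measured X-linked genes. Among the 12 that passed, 4 had a region (among them Xist, Tceal5 and Gpm6b) and 8 had none (Eif2s3x, Ddx3x, Kdm5c, Kdm6a, 5530601H04Rik, Gpr34, Gm38020 and Ftx). Among the 302 measured expressed genes that did not pass, 186 (61.6%) had a region. The 4 of 12 is 33.3%, with an exact 95% interval of 9.92 to 65.1% that holds 61.6%. The 4 include Xist, whose regions are all higher on C57, and the 12 are not all separate genes. The interval therefore cannot say whether genes that passed differ from the others. The 8 held 763 of the 978 Spretus reads where no region was listed, and the 3 other than Xist held 234 of the 485 beside regions. Gm38020 lies inside Ftx, so those 2 are not separate.

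The escape genes without a region include Eif2s3x, a translation initiation factor gene, with 143 reads from C57 and 103 from Spretus in library 1, then 53 and 34. Kdm5c, a histone demethylase gene, had 371 and 134, then 77 and 28. The nearest listed region lay 20824 bp from an end of Eif2s3x and 53038 bp from Kdm5c. Ddx3x, an RNA helicase gene, and Kdm6a, a further histone demethylase gene, were just outside the rule. Their nearest regions lay 2056 and 2033 bp from the gene start, inside each gene: chrX:13283026-13283596 at 0 on C57 and 0.795 on Spretus, and chrX:18164608-18165365 at 0.0287 and 0.771. With a window of 5 kb both count as having a region, which makes 6 of the 12. Absence from the list leaves a place without a measured level here, not with a level of 0.

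**Figure D5:**
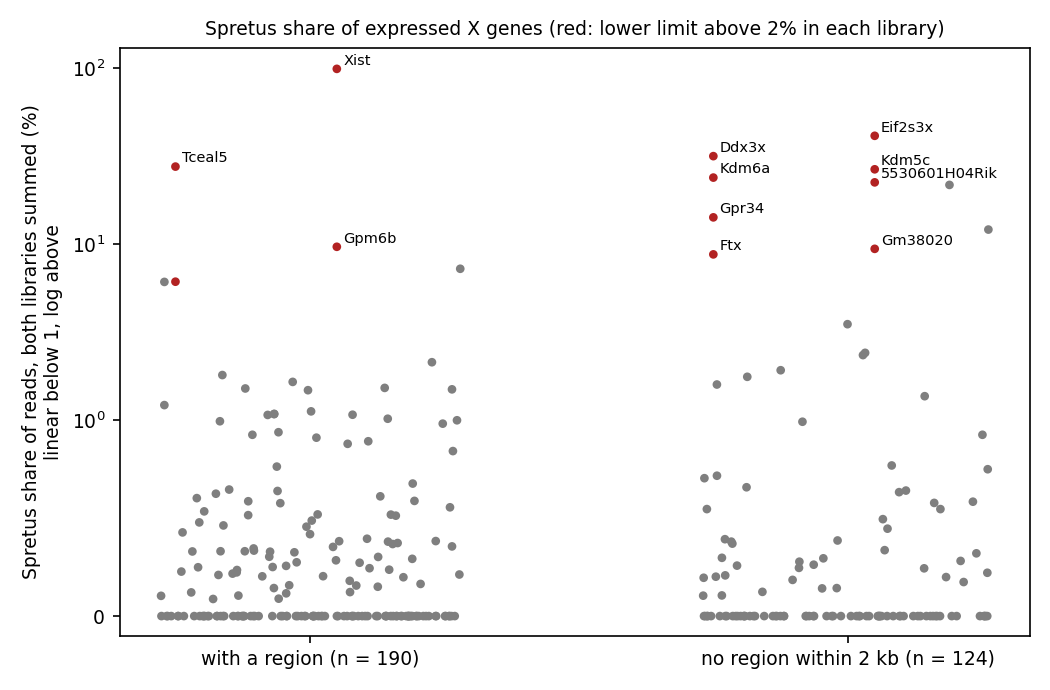
Spretus share of allele-assigned reads, summed over both RNA libraries (%, linear below 1 and log above), for 190 expressed X-linked genes with a region and 124 without, 1 point per gene, spread sideways only for legibility. Red points passed the 2% limit in each library, 4 in the left column and 8 in the right, and the genes named in the text are labelled.

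The genes that had both Spretus reads and a Spretus-methylated region differ in where the region lies. Tceal5, named as a relative of a transcription elongation factor, had 92 reads from C57 and 37 from Spretus in library 1, then 45 and 15 (26.8% ± 2.60, SD, n = 2). Its region, chrX:136204078-136204138, is 60 bp long, lies upstream of the start and stood at 0 and 0.700. Its log2 ratio was -1.36 by quasi-likelihood in edgeR (SE 0.37, Benjamini-Hochberg adjusted p = 0.0451), and DESeq2 with its own adjustment did not call it (adjusted p = 0.0825). Neither fit uses the pairing of the alleles within a library. With the library as a block, quasi-likelihood in edgeR gave -1.26 (SE 0.199, Benjamini-Hochberg adjusted p = 4.78e-06).

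Gpm6b, a membrane glycoprotein gene of neurons and glia, had 1083 reads from C57 and 131 from Spretus in library 1, then 462 and 34. Its regions lie inside the gene, 647 bp (chrX:166239558-166239780, 0 and 0.740) and 1548 bp (chrX:166240459-166240948, 0.257 and 0.856) from the start, and neither touches the promoter window. Maoa had 156 and 14 reads, then 49 and 2, and did not pass in library 2 (3.92%, exact 95% interval 0.478 to 13.5%), while its start is covered by 1675 bp at 0 and 0.461. Utp14a, a listed escape gene, had 119 and 9, then 35 and 1, with 0.0321 and 0.569 near its start.

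The level difference had a rank correlation near 0 with the Spretus share of the gene too. Over 230 regions beside measured genes the Spearman correlation was 0.03. The Pearson correlation was -0.81 over the same regions and 0.01 over the 227 without the 3 at Xist, so it rests on Xist. Here too the range of the level difference was narrowed by the list.

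The count of genes with a region is given for each list beside the 53.5% of all 510 expressed X-linked loci, with no test between lists. That baseline depends on the loci taken. It was 61.9% among the 381 loci matched to a RefSeq promoter entry, and 58.5% among genes of at least 5 FPKM in library 1. Of 17 expressed genes of the escape list, 3 had a region (17.6%), namely Utp14a, Usp9x and Syap1. Usp9x, a deubiquitinase gene at 787 and 4 reads from C57 and Spretus in library 1 and 296 and 0 in library 2, had regions at 0 and 0.834 and at 0 and 0.651. Syap1 had no Spretus read in 181 and a region at 0.0229 and 0.686. Of 6 expressed loci in the list for the inactivation centre and X-linked noncoding RNA, 4 had a region, namely Xist, Rlim, Chic1 and Firre. At Firre, a noncoding gene of nuclear organisation, the region near the start (1179 bp) was higher on Spretus, at 0.0123 and 0.685. The nearest listed regions below that region on the chromosome ran the other way. They are outside the rule because they lie more than 2 kb from any expressed gene end, which does not place them outside the gene. Among them chrX:50619840-50621571 stood at 0.884 and 0.0925, and chrX:50590875-50591987 at 0.966 and 0.

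Among genes of chromatin and transcription, 14 of 21 expressed genes (66.7%) had a region. Rbbp7, a histone-binding protein gene, had 3, at 0.0427 and 0.795, 0.0305 and 0.639, and 0.0607 and 0.852. Smc1a, Ogt, Phf8, Atrx and Mbtps2 had 2 each. Among metabolic and housekeeping genes, 22 of 26 (84.6%) had a region, among them Pgk1, G6pdx, Rps4x and Rpl10, while Hprt, Fundc1, Vbp1 and Slc6a8 had none. Among genes of synapse and neuronal signalling, 11 of 25 (44.0%) had a region, among them Cnksr2 and Il1rapl2 with 2 each. The synaptic vesicle gene Syp and the glutamate receptor gene Gria3, at 379 and 74.3 FPKM in library 1, had none within 2 kb. Median Spretus shares of the measured genes were 0.0605% in the metabolic list, 0.110% in the chromatin list and 0.201% in the synaptic list, and 8.74% in the escape list.

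Regions higher on Spretus lay on both sides of the FPKM threshold. Just inside it, Arhgap6 (1.03 FPKM) had a region at 0.00915 and 0.546 and Pfkfb1 (1.07) one at 0.00810 and 0.606. Gm15726 (1.07), also just inside, had the C57-higher region described above. Just outside, Hmgn5 (0.998) had a region at 0 and 0.913 and 4933407K13Rik (0.933) one at 0.0367 and 0.512. A230072E10Rik (0.945) had a region at 0.0556 and 0.685 that is included through a neighbouring gene.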

How the data were processed

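Methylation levels were deposited as 1 fraction per allele and region, per the file headers. The list is named for methylpy, while its thresholds, cytosine context, coverage and pooling were not given in the sources. For each RNA library the authors deposited raw counts of reads per allele and 1 FPKM value per gene, per the file headers. Tools named in the submitters' processing notes, without roles, are bedtools 2.2.4, HTSeq 0.6.0, Cufflinks 2.1.1 and TopHat2 2.0.9, and the build is mm10. Counting by strand is not stated, so overlapping and antisense genes are uncertain.

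Gene starts, counted from 0 in the files, were raised by 1. A region took the expressed gene of nearest end. Counts were tested with edgeR 4.0.16 (glmQLFit and glmQLFTest, TMM, allele as the only term) in R 4.3.3 for genes whose allele-assigned reads numbered 10 or more in both libraries, adjusted with Benjamini-Hochberg over all genes, threshold 0.05. The test was tried on simulated data. Alternatives were DESeq2 1.42.0, the library as a block (each library gives both alleles, so the columns are paired by design), other scalings, filters, windows and thresholds. Intervals are exact Clopper-Pearson, a count of 0 is taken to allow 3 reads, and both cover counting error only. Named regions were the 10 longest higher on Spretus, the 5 higher on C57, and those beside genes with Spretus reads or list genes; named genes also the 10 of highest FPKM. Other regions were named for their position or level after their values were seen. The members and lists were chosen with earlier results of these data known. A region without levels was left out, and some results that these rules name are not reported here.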

Additional observations from a re-analysis of the deposited data

How the results depend on the processing

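Of 99 values recomputed under an alternative, 93 were counted as unchanged. Shares, medians and correlations had to stay within the reported interval, and log2 ratios on the same side of the threshold. Counts only had to stay within a set ratio of the reported count, a looser rule by which 6 genes against 4 counted as unchanged. The share of regions higher on Spretus stayed between 97.4% (window of 5 kb) and 99.2% (window of 1 kb) over the planned settings, and was 99.4% without the Xist regions, a setting chosen after seeing the data. The percent of expressed X-linked genes with a region, 53.5% as reported, was 58.5% for genes of at least 5 FPKM, 59.7% with the FPKM of library 2 in place of library 1, and 44.3% for regions of at least 200 bp, which leaves fewer regions by construction. The last setting gave a median length of 622.5 bp. Values of library 2 ran lower, so the same cut of 1 FPKM was stricter there. It left 190 genes beside regions, near the 192 at 5 FPKM or more in library 1. Genes beside a region that passed the limit on Spretus reads were 4 as reported, 2 with a lower limit above 10%, 4 in library 2 alone and 6 in library 1 alone. The library as a replicate block called 232 genes beside regions toward C57, as did the fit without it, and changed no call of Xist, Tceal5, Gpm6b, Maoa, Utp14a or Rlim. DESeq2 called 231, Tceal5 being the gene lost. Without a filter on reads, 264 of 270 were called. With 1 RNA library left the edgeR fit has no residual degrees of freedom, so no test was made. No replicate exists for the methylation levels, whose depth is unknown.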
